A study of Rattus norvegicus with 9 samples.

Results

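miR-208a-3p, miR-208b-3p, miR-499-5p and miR-486 are muscle microRNAs (miRNAs) that are cut from introns of muscle genes, and all 4 were measured in neonatal rat heart muscle cells with more or less Yap. The rule that chose them uses only name and host gene, but it was set with earlier results of these data known. The hosts are Myh6 for miR-208a, Myh7 for miR-208b, Myh7b for miR-499 and Ank1 for miR-486. The 4 members stand among 1422 miRNAs in the deposited table, and all 4 passed the filter on low counts that left 579 miRNAs for testing.

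The study compared small RNA from primary cardiomyocytes of SD (Sprague Dawley) rat pups aged 1 to 2 days, kept in normal glucose and collected 48 h after adenoviral infection. Ad-Yap WT cells received a virus that overexpresses Yap1, the co-activator that Hippo signalling holds in check. Ad-Yap shRNA cells received a virus with a short hairpin RNA that knocks Yap1 down. Ad-GFP cells received a virus for green fluorescent protein and serve as the control of both. Each group has 3 libraries, 9 in all. Every group was infected. The groups include no uninfected cells and no non-targeting shRNA, so the shRNA as such and the loss of Yap cannot be told apart. The labels do not say that replicates came from separate cell isolations, nor which promoter drives each virus, and p-values measure only how far these libraries differ, a spread that can be technical. A miRNA table holds no Yap mRNA, so the change in Yap could not be checked here.

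An intronic miRNA is often, but not always, made from its host gene's transcript, and no host mRNA was measured here. The hairpin is cut from the intron and trimmed to a duplex. Usually 1 arm is kept in an Argonaute protein while the other is degraded. The kept arm finds its targets mainly through its seed, the bases near its 5′ end. Myh6 and Myh7 encode the alpha and beta myosin heavy chains, the fast and slow motors of the heart, and Myh7b encodes a related slow-type myosin. In mice, miR-208a is needed for the heart's stress-induced rise in beta myosin, and miR-208b and miR-499 favour the slow muscle fibre programme. Ank1 encodes ankyrin-1, which has a muscle form, and miR-486 is abundant in striated muscle and red blood cells.

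The mature sequences are shown because the myosin-encoded members share a seed; each is written 5′ to 3′ with bases 2 to 8 in capitals. They come from RefSeq with assembly GRCr8, and 3 of the 4 members matched an entry there, while miR-486 is given by name only.
rno-miR-208a-3p: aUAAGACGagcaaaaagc
rno-miR-208b-3p: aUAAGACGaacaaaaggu
rno-miR-499-5p: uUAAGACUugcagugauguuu
miR-208a-3p and miR-208b-3p had the same bases 2 to 8, which only these 2 of the 693 mature rat sequences in the reference share. miR-499-5p shared bases 2 to 7 with them, a run of 6, and 3 of the 693 sequences have it. Between miR-208a-3p and miR-208b-3p, 15 of 18 positions were identical, and the substitutions from the first to the second, counted from 1 at the 5′ end, were G10A, A16G and C18U. How reads matching more than 1 miRNA were counted is not given in these sources.

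The hairpins are shown because both arms of each were read, and the text below compares them. Capitals mark the 5p and then the 3p arm as RefSeq gives them.
Mir208a: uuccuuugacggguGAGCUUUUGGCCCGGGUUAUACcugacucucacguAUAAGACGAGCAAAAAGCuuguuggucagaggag
Mir208b: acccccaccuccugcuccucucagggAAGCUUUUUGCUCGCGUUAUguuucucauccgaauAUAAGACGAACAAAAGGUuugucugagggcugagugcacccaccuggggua
Mir499a: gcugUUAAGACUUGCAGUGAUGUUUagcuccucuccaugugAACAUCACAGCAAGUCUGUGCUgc
In GRCr8, Mir208a lies at chr15:32395552-32395634 on the minus strand, Mir208b at chr15:32421615-32421726 on the minus strand, and Mir499a at chr3:164570612-164570676 on the plus strand. Each lies inside the span of its host gene, Myh6, Myh7 and Myh7b in that order, and on the same strand. The submitters' processing notes name another build, rn6, and no coordinates were converted.

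Libraries differed in depth and in how much of it was miRNA. The summed miRNA reads numbered 1931204 to 2948713 in Ad-Yap WT, 1482367 to 2094541 in Ad-Yap shRNA and 3496284 to 3599483 in Ad-GFP libraries. The library totals implied by the authors' RPM values (reads scaled to a total of 1000000) were 16.7 to 22.1 M in Ad-Yap WT, 20.5 to 21.2 M in Ad-Yap shRNA and 13.7 to 14.3 M in Ad-GFP libraries. miRNA reads were thus 8.76 to 17.6% of the total in Ad-Yap WT, 7.22 to 9.87% in Ad-Yap shRNA and 24.6 to 26.2% in Ad-GFP libraries, so a value per total read and a value per miRNA read can differ in direction. Levels below are CPM, counts scaled to 1000000 miRNA reads, after TMM scaling, which sets the bulk of the miRNAs equal between libraries, and they are not levels per cell. Because this is bulk RNA, fewer cells of a type and less RNA per cell cannot be told apart.

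The 4 members differed widely in read count. miR-499-5p ranked 2 to 12 among all miRNAs in the 9 libraries and held 2.38 to 3.96% of the miRNA reads. miR-486 ranked 126 to 163. miR-208b-3p ranked 344 to 393 and miR-208a-3p 292 to 391, and both rested on at most 149 reads in any library.

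Relative to other miRNAs after TMM scaling, miR-499-5p and miR-486 rose with Yap shRNA, while no change was detected for either miR-208 member at these read counts. With summed miRNA reads alone miR-486 did not rise, at -0.06 on the log2 scale (edgeR, adjusted p = 0.742). Against Ad-GFP, 2 of the 4 members passed the test in Ad-Yap shRNA cells, both upward, where 24.0% of the 579 tested miRNAs rose, 17.8% fell and 41.8% changed in either direction. In Ad-Yap WT cells 0 of 4 passed by edgeR's quasi-likelihood test at an adjusted p of 0.05, where 25.0% of all tested miRNAs did, 15.4% upward and 9.67% downward. Of the 4 members, only miR-499-5p had an unadjusted p under that threshold, and by DESeq2 it passed, at 0.36 (adjusted p = 0.0431). Against Ad-Yap shRNA cells 2 of 4 were lower in Ad-Yap WT cells and 0 higher, where 14.3% of tested miRNAs were lower, 14.2% higher and 28.5% differed in either direction. The CPM ranges of the groups did not overlap for 1 of 4 members in Ad-Yap WT against Ad-GFP, for 2 of 4 in Ad-Yap shRNA against Ad-GFP, nor for 2 of 4 in Ad-Yap WT against Ad-Yap shRNA, beside 47.3%, 55.3% and 43.4% of all tested miRNAs. The members' median log2 fold change was 0.06 for Ad-Yap WT over Ad-GFP, 0.47 for Ad-Yap shRNA over Ad-GFP and -0.45 for Ad-Yap WT over Ad-Yap shRNA, beside medians over all tested miRNAs of 0.03, 0.04 and -0.04. The comparisons with Ad-GFP share the same 3 control libraries.

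**Figure D1:**
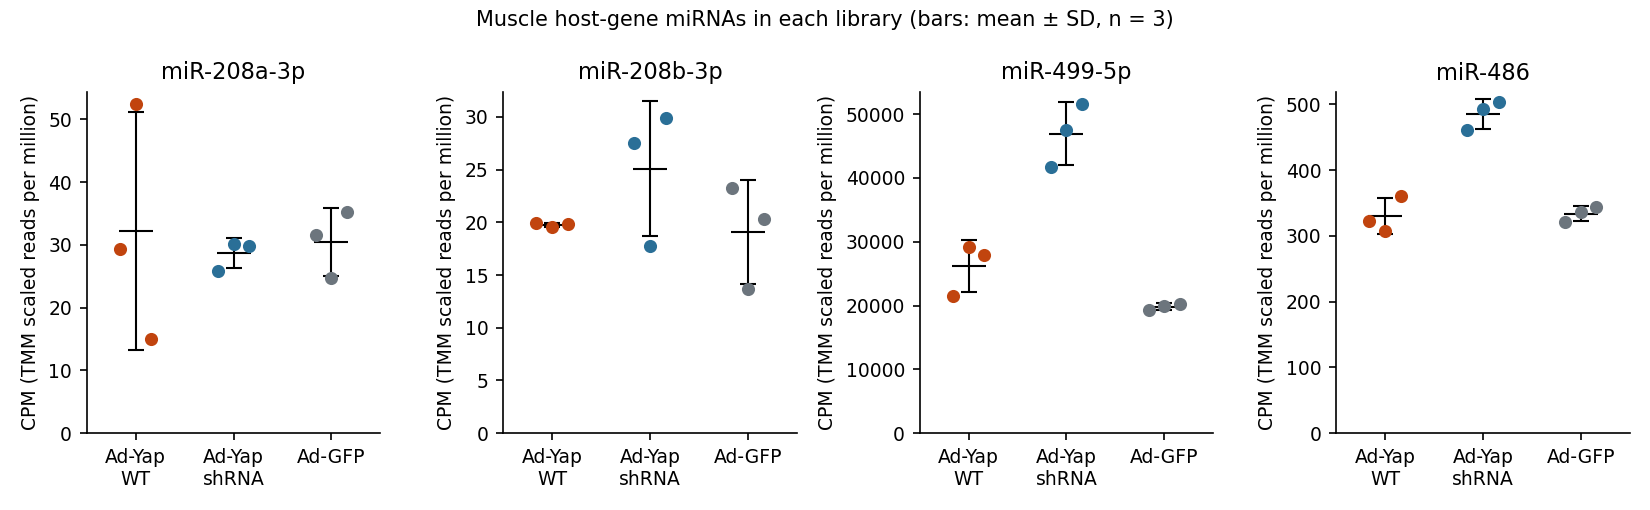
TMM-scaled CPM of the 4 members on linear axes from 0, 1 panel per miRNA, with Ad-Yap WT left, Ad-Yap shRNA in the middle and Ad-GFP right; points are libraries and the bars are group means with SD (n = 3). The Ad-Yap shRNA points of miR-499-5p (41768 to 51561.5 CPM) and miR-486 (461 to 504 CPM) lie above all other libraries, while those of miR-208a-3p and miR-208b-3p overlap between all groups.

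miR-499-5p, the product of the Myh7b intron, had 21498, 29099.6 and 27971 CPM in the Ad-Yap WT, 41768, 47443 and 51561.5 CPM in the Ad-Yap shRNA, and 19298, 19861 and 20306 CPM in the Ad-GFP libraries. The 3 groups did not overlap: the Ad-Yap shRNA libraries were highest, the Ad-GFP libraries lowest and closest together. The means were 26190 ± 4102 CPM in Ad-Yap WT, 46924 ± 4918 CPM in Ad-Yap shRNA and 19822 ± 505 CPM in Ad-GFP cells (SD, n = 3 each). Its log2 fold change of Ad-Yap shRNA over Ad-GFP was 1.24 with a standard error of 0.13, a 2.37-fold rise (edgeR quasi-likelihood test, adjusted p = 0.000445). Ad-Yap WT over Ad-GFP gave 0.40 with a standard error of 0.13 (edgeR, adjusted p = 0.0588), which missed the threshold, and it was 0.074 with summed reads alone and 0.067 with cyclic loess. Leaving out Ad-Yap WT replicate 1, the lowest of its group, brought that value to 0.53 and past the threshold (edgeR, adjusted p = 0.00889). Ad-Yap WT was lower than Ad-Yap shRNA by a log2 fold change of -0.84 with a standard error of 0.13 (edgeR, adjusted p = 0.00306).

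miR-486 lies in Ank1. It had 323, 308 and 361 CPM in the Ad-Yap WT libraries, 461, 493 and 504 CPM in the Ad-Yap shRNA libraries, and 321, 337 and 344 CPM in the Ad-GFP libraries. All Ad-Yap shRNA libraries stood above the other 6, and the Ad-Yap WT range enclosed the Ad-GFP range. The means were 331 ± 27.2 CPM in Ad-Yap WT, 486 ± 22.7 CPM in Ad-Yap shRNA and 334 ± 11.9 CPM in Ad-GFP cells (SD, n = 3 each). Its log2 fold change of Ad-Yap shRNA over Ad-GFP was 0.54 with a standard error of 0.089, a 1.45-fold rise (edgeR, adjusted p = 0.0023), and Ad-Yap WT over Ad-GFP gave -0.02 with the same error (edgeR, adjusted p = 0.922; 95% interval -0.22 to 0.19). With no filter on low counts the Ad-Yap shRNA value was 0.43 and missed the threshold (edgeR, adjusted p = 0.0813). With summed miRNA reads alone it was -0.06, no rise (edgeR, adjusted p = 0.742). Against Ad-Yap shRNA, Ad-Yap WT was lower by -0.56 on the log2 scale with a standard error of 0.089 (edgeR, adjusted p = 0.00316), a call that ended with summed reads alone, at -0.27 (edgeR, adjusted p = 0.173).

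miR-486 is also a red blood cell miRNA, so the blood list is set beside it. The summed CPM of its 6 miRNAs was 246 to 546 in Ad-Yap WT, 334 to 439 in Ad-Yap shRNA and 480 to 659 in Ad-GFP libraries. The list mixes red and white blood cell miRNAs. Of the 5 tested, 0 rose and 0 fell in Ad-Yap WT against Ad-GFP, with a median of -0.37 on the log2 scale, beside 15.4% and 9.67% of all tested miRNAs. In Ad-Yap shRNA 0 rose and 1 fell, with a median of -0.53, beside 24.0% and 17.8%. The part of blood cells in the miR-486 values was not tested. miR-144-5p, an erythroid miRNA that was not among those tested, had 0 to 3 reads in Ad-Yap WT, 0 in all 3 Ad-Yap shRNA and 1 to 4 in Ad-GFP libraries. The tested arm, miR-144-3p, had 3 to 14 reads in Ad-Yap WT, 1 to 6 in Ad-Yap shRNA and 15 to 43 in Ad-GFP libraries. miR-451-5p, the defining red cell miRNA, had 419, 177 and 147 CPM in the Ad-Yap WT, 329, 367 and 260 CPM in the Ad-Yap shRNA, and 441, 390.1 and 548 CPM in the Ad-GFP libraries. It did not pass in either comparison with Ad-GFP, at -0.89 with a standard error of 0.38 for Ad-Yap WT (edgeR, adjusted p = 0.125) and -0.53 with the same error for Ad-Yap shRNA (edgeR, adjusted p = 0.306). Without replicate 1 of Ad-Yap WT, the highest of its group, the Ad-Yap WT value was -1.50 and passed (edgeR, adjusted p = 0.00491). The 1 that fell was miR-142-5p, a white blood cell miRNA, at -1.48 with a standard error of 0.40 (edgeR, adjusted p = 0.0196), a call lost without replicate 3 of Ad-GFP or replicate 2 or 3 of Ad-Yap shRNA (edgeR, adjusted p from 0.0531 to 0.0615).

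miR-208a-3p, the arm from Myh6, was read 97, 91 and 31 times in the Ad-Yap WT libraries, 48, 39 and 34 times in the Ad-Yap shRNA libraries, and 140, 110 and 149 times in the Ad-GFP libraries. On the CPM scale this was 29.3, 52.4 and 15.0 in the Ad-Yap WT, 25.9, 30.2 and 29.9 in the Ad-Yap shRNA, and 31.5, 24.7 and 35.3 in the Ad-GFP libraries. The Ad-Yap WT group held both the highest and the lowest of the 9 CPM values, and all groups overlapped. The log2 fold change was 0.07 for Ad-Yap WT over Ad-GFP with a standard error of 0.39 and a 95% interval of -0.84 to 0.98 (edgeR, adjusted p = 0.913), and its sign turned when single libraries were left out, with a range of -0.45 to 0.41. For Ad-Yap shRNA over Ad-GFP it was -0.09 with an interval of -1.01 to 0.83 (edgeR, adjusted p = 0.885). A change of the size seen for miR-486, 0.54, lies inside both intervals and was not detectable at this depth.

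miR-208b-3p, the arm from Myh7, was read 66, 34 and 41 times in the Ad-Yap WT libraries, 51, 23 and 34 times in the Ad-Yap shRNA libraries, and 103, 61 and 86 times in the Ad-GFP libraries. In CPM it had 19.9, 19.6 and 19.8 in the Ad-Yap WT, 27.5, 17.8 and 29.9 in the Ad-Yap shRNA, and 23.2, 13.7 and 20.4 in the Ad-GFP libraries. The Ad-Yap shRNA group held the highest libraries but reached down into the range of the others. The log2 fold change was 0.39 for Ad-Yap shRNA over Ad-GFP and 0.05 for Ad-Yap WT over Ad-GFP, each with a standard error of 0.25 (edgeR, adjusted p = 0.25 and 0.906), and the 95% intervals were -0.19 to 0.97 and -0.52 to 0.62. Myh6 and Myh7 are the alpha and beta myosin pair, and the ratio of miR-208a-3p to miR-208b-3p reads within a library was 1.47, 2.68 and 0.756 in the Ad-Yap WT, 0.941, 1.70 and 1.00 in the Ad-Yap shRNA, and 1.36, 1.80 and 1.73 in the Ad-GFP libraries. These ranges overlapped, and an exact permutation test over the 3 groups gave p = 0.589, or 0.707 after Benjamini-Hochberg adjustment over the 6 pairs of members.

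The 3p arms of the miR-208 hairpins, which are the members here, were not the arms most often read. miR-208a-5p, the other arm of Mir208a, had 2777, 2729 and 2887 CPM in the Ad-Yap WT, 3853, 4541 and 5429.75 CPM in the Ad-Yap shRNA, and 3994, 3828 and 3941 CPM in the Ad-GFP libraries. The 3p arm was 1.15 ± 0.69% of the reads of both arms in Ad-Yap WT, 0.625 ± 0.068% in Ad-Yap shRNA and 0.770 ± 0.12% in Ad-GFP libraries (SD, n = 3 each). For Mir208b the 3p share was 29.1 ± 5.5% in Ad-Yap WT, 21.7 ± 5.8% in Ad-Yap shRNA and 17.8 ± 4.1% in Ad-GFP libraries (SD, n = 3 each). Its Ad-Yap WT libraries lay above its Ad-GFP libraries without overlap, but the ratio of its arms did not pass an exact permutation test over the 3 groups (adjusted p = 0.1625 over 7 ratios). For Mir499a the member is the 5p arm, and it was 99.90 ± 0.11% of the reads in Ad-Yap WT, 99.97 ± 0.0070% in Ad-Yap shRNA and 99.96 ± 0.015% in Ad-GFP libraries (SD, n = 3 each). Thus, for Mir208a and Mir208b the 5p arm, and for Mir499a the member itself, gave most reads in every library. The 5p arms of Mir208a and Mir208b, with bases 2 to 8 in capitals, are much alike at the 5′ end.
rno-miR-208a-5p: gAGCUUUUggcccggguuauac
rno-miR-208b-5p: aAGCUUUUugcucgcguuau
Length differs with the arm: miR-208a-3p and miR-208b-3p are both listed with 18 bases, against 22 for miR-208a-5p and 20 for miR-208b-5p. Of the 587 table miRNAs with a reference sequence, 13 (2.22%) are listed with 18 bases or fewer, and the median is 22. Of the 11 such miRNAs whose other arm is also in the table, 10 had fewer reads than that arm. These include miR-208a-3p and miR-208b-3p themselves, and the same share was not taken for longer arms, so the count cannot show an effect of length. The part of listed length or gel selection in the low 3p counts was not tested.

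**Figure D2:**
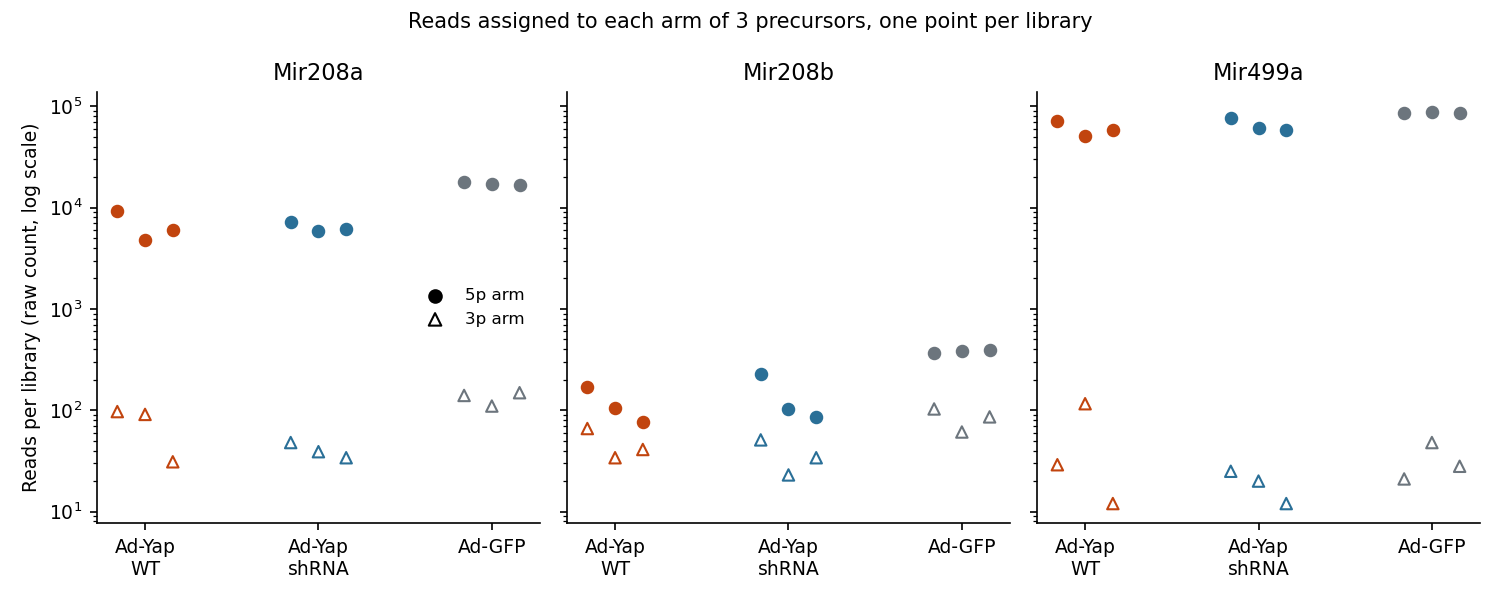
Read counts of the 5p arms (filled circles) and 3p arms (open triangles) of Mir208a, Mir208b and Mir499a on a log axis, with Ad-Yap WT left, Ad-Yap shRNA in the middle and Ad-GFP right; each point is 1 library. The 5p arm of Mir208a (4739 to 17727 reads) stands far above its 3p arm (31 to 149 reads) in all 9 libraries, as does the 5p arm of Mir499a over its 3p arm.

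Both miR-208 5p arms fell with Yap overexpression, while their 3p arms, with fewer reads, did not pass the test. The log2 fold change of miR-208a-5p was -0.49 for Ad-Yap WT over Ad-GFP with a standard error of 0.12 (edgeR, adjusted p = 0.0236), and all Ad-Yap WT libraries lay below all Ad-GFP libraries. That call did not hold without any single Ad-GFP library or without Ad-Yap WT replicate 2 or 3 (edgeR, adjusted p between 0.0548 and 0.0696). miR-208b-5p had 51.3, 61.1 and 36.7 CPM in the Ad-Yap WT, 123, 78.9 and 75.6 CPM in the Ad-Yap shRNA, and 83.1, 86.6 and 92.6 CPM in the Ad-GFP libraries. All its Ad-Yap WT libraries were lower than every other library, while the Ad-Yap shRNA range enclosed the Ad-GFP range. Its log2 fold change was -0.82 for Ad-Yap WT over Ad-GFP with a standard error of 0.25 (edgeR, adjusted p = 0.0474), and the call was lost in 7 of 9 fits that each left out 1 library, the exceptions being replicate 2 of Ad-Yap WT and replicate 1 of Ad-Yap shRNA (edgeR, adjusted p from 0.0526 to 0.125). It was also lost with cyclic loess (limma, adjusted p = 0.0557), with no filter on low counts (edgeR, adjusted p = 0.068) and with a replicate block (edgeR, adjusted p = 0.0608).

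Against Ad-Yap shRNA, both 5p arms were also lower in Ad-Yap WT. miR-208a-5p gave -0.72 with a standard error of 0.12 (edgeR, adjusted p = 0.00393) and miR-208b-5p gave -0.90 with a standard error of 0.25 (edgeR, adjusted p = 0.0311), a call that ended with summed reads alone (-0.64; adjusted p = 0.145), with no filter on low counts (adjusted p = 0.0653) and in a fit of the 2 groups alone (adjusted p = 0.0732). With the authors' totals miR-208b-5p was at -0.071 (edgeR, adjusted p = 0.924), and miR-208a-5p turned to 0.22 (edgeR, adjusted p = 0.641), so neither was called. The miR-208b-5p call also ended in each fit that left out replicate 1 of any group, or replicate 3 of Ad-Yap WT or of Ad-GFP (edgeR, adjusted p from 0.0507 to 0.0844). For Ad-Yap shRNA over Ad-GFP neither passed: miR-208a-5p gave 0.23 with a standard error of 0.12 (edgeR, adjusted p = 0.161) and miR-208b-5p gave 0.08 with a standard error of 0.25 (edgeR, adjusted p = 0.828). For miR-208a-5p this rested on the library set and the scaling: without replicate 1 of Ad-Yap shRNA it was higher by 0.36 (edgeR, adjusted p = 0.0227), and with summed reads alone it was lower, at -0.37 (edgeR, adjusted p = 0.0299). miR-499-3p, the minor arm of Mir499a, was read 29, 116 and 12 times in the Ad-Yap WT, 25, 20 and 12 times in the Ad-Yap shRNA, and 21, 48 and 28 times in the Ad-GFP libraries. Ad-Yap WT replicate 2 stood far above the rest, and no comparison of this arm passed: its log2 fold change of Ad-Yap WT over Ad-GFP was 1.84 with a standard error of 0.86 (edgeR, adjusted p = 0.155), and -0.01 to 2.30 with 1 library left out.

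The direction of the rise in Ad-Yap shRNA depended on what the counts were divided by. Per total library reads, the authors' RPM of miR-499-5p averaged 3168 ± 1001 in Ad-Yap WT, 3141 ± 440.1 in Ad-Yap shRNA and 6205 ± 26.8 in Ad-GFP cells (SD, n = 3 each). miR-486 averaged 42.1 ± 20.1 RPM in Ad-Yap WT, 32.8 ± 6.5 RPM in Ad-Yap shRNA and 104.5 ± 0.87 RPM in Ad-GFP cells (SD, n = 3 each). On that scale every Ad-Yap shRNA and every Ad-Yap WT library lay below every Ad-GFP library for all 4 members. With edgeR scaled to those totals all 4 members fell in Ad-Yap shRNA against Ad-GFP, where 82.7% of the 579 tested miRNAs fell, and all 4 fell in Ad-Yap WT, where 53.9% did. The members' log2 fold changes of Ad-Yap shRNA over Ad-GFP were then -2.31 for miR-208a-3p, -1.80 for miR-208b-3p, -0.98 for miR-499-5p and -1.67 for miR-486, beside a median of -2.15 over all tested miRNAs. miR-499-5p was thus above the median miRNA. miR-208a-3p lay close to it, at a distance smaller than its standard error of 0.40 with TMM. For Ad-Yap WT over Ad-Yap shRNA, these totals brought miR-499-5p to 0.013 and miR-486 to 0.36, beside a median of 0.85.

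For Ad-Yap WT over Ad-GFP the same scaling gave -1.32 for miR-208a-3p, -1.25 for miR-208b-3p, -0.97 for miR-499-5p and -1.31 for miR-486, beside a median of -1.26. With the summed miRNA reads alone and no TMM step, which moves the median of all tested miRNAs to -0.54 for Ad-Yap shRNA, miR-499-5p was at 0.64 (edgeR, adjusted p = 0.000369) and miR-486 at -0.06 (edgeR, adjusted p = 0.742). Under cyclic loess scaling both passed, at 0.63 for miR-499-5p and 0.64 for miR-486 (limma with a mean trend, adjusted p = 0.000121 and 0.00247). The count of tested miRNAs called higher and lower in Ad-Yap shRNA moved with the scaling, from 139 and 103 with TMM to 66 and 221 with summed reads and 14 and 479 with the authors' totals. For Ad-Yap WT over Ad-GFP it was 89 and 56 with TMM, 74 and 71 with upper-quartile scaling, 51 and 104 with summed reads, and 10 and 312 with the authors' totals.

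**Figure D3:**
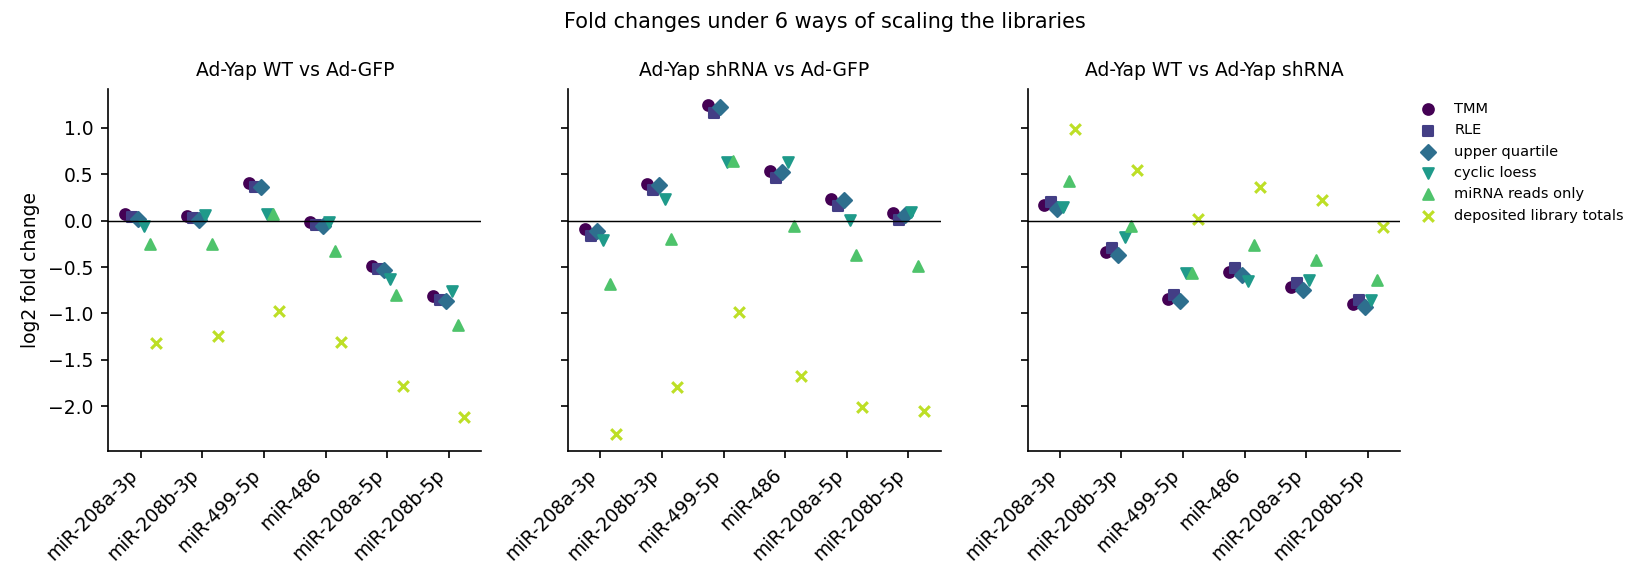
Log2 fold change of the 4 members and the 5p arms of Mir208a and Mir208b under 6 scalings of the counts, with 1 panel each for Ad-Yap WT over Ad-GFP, Ad-Yap shRNA over Ad-GFP and Ad-Yap WT over Ad-Yap shRNA. With the authors' totals (crosses) all 6 miRNAs lie below 0 in both comparisons with Ad-GFP; with TMM (circles), miR-499-5p stands highest in Ad-Yap shRNA over Ad-GFP, at 1.24.

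Ratios of reads within a library do not depend on scaling, but they can still vary with depth. The ratio of miR-499-5p to miR-486 reads was 66.6, 94.4 and 77.5 in the Ad-Yap WT, 90.7, 96.3 and 102 in the Ad-Yap shRNA, and 60.1, 58.9 and 59.0 in the Ad-GFP libraries. All 6 libraries with Yap changed in either direction stood above the Ad-GFP libraries, and the ranges of Ad-Yap WT and Ad-Yap shRNA libraries overlapped. Within Ad-Yap WT the ratio was higher with fewer summed miRNA reads: 66.6 at 2948713, 77.5 at 2148161 and 94.4 at 1931204 reads. Within Ad-Yap shRNA it was 90.7 at 2094541, 96.3 at 1615398 and 102 at 1482367 reads. Depth also differed between the groups, and its part in this ratio was not tested. The geometric means were 78.7 in Ad-Yap WT, 96.3 in Ad-Yap shRNA and 59.4 in Ad-GFP cells, and an exact permutation test over the 3 groups gave p = 0.00714, adjusted to 0.0429 over the 6 pairs of members. With 1 library left out the adjusted p ranged from 0.0214 to 0.257, and it missed the threshold without any Ad-GFP library (each of the 3), without any Ad-Yap shRNA library (each of the 3), and without Ad-Yap WT replicate 1. The ratio of miR-208b-3p to miR-499-5p had an exact permutation p of 0.0429, adjusted to 0.129, and none of the other 4 pairs had an adjusted p below 0.3.

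The ratio of miR-208a-5p to miR-499-5p sets a miRNA from a Myh6 intron beside one from a Myh7b intron at high read counts. It was 0.129, 0.0938 and 0.103 in the Ad-Yap WT, 0.0922, 0.0957 and 0.105 in the Ad-Yap shRNA, and 0.207, 0.193 and 0.194 in the Ad-GFP libraries. Both groups with altered Yap lay below Ad-GFP without overlap, 1.84-fold lower for Ad-Yap WT and 2.03-fold lower for Ad-Yap shRNA cells, and overlapped each other. In a family of 7 ratios with the other arms, chosen after their counts were seen, the exact permutation p was 0.0214, adjusted to 0.075. miR-208a-5p to miR-486 gave geometric means of 8.48 in Ad-Yap WT, 9.40 in Ad-Yap shRNA and 11.7 in Ad-GFP cells, with an exact permutation p of 0.0107 that was also adjusted to 0.075. The ratio of the 2 miR-208 5p arms overlapped between the groups, with geometric means of 57.5 in Ad-Yap WT, 50.6 in Ad-Yap shRNA and 44.9 in Ad-GFP cells (exact permutation p = 0.6). None of the 7 passed after adjustment. With 3 libraries against 3, an exact permutation test cannot go below p = 0.1, so pairs of groups were not tested on their own.

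**Figure D4:**
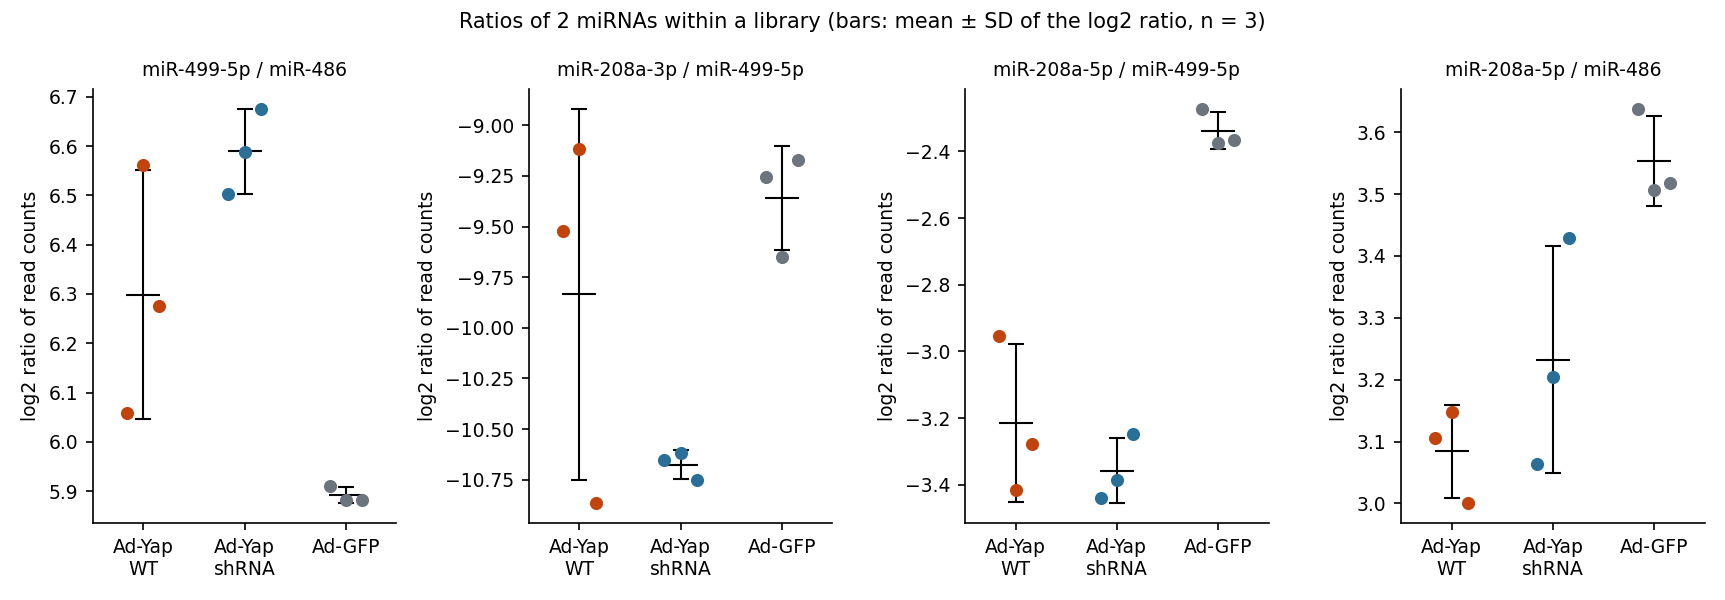
Log2 ratio of the read counts of 2 miRNAs within a library for 4 pairs, with Ad-Yap WT left, Ad-Yap shRNA in the middle and Ad-GFP right; points are libraries and bars are the mean and SD of the log2 ratio (n = 3). For miR-499-5p over miR-486 all Ad-GFP libraries (ratios of 58.9 to 60.1) lie below the 6 others, and for miR-208a-5p over miR-499-5p they lie above them.

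Summed miRNA reads differed between groups, and among replicates of 1 group the members' counts did not all follow it in proportion. In the 3 pairs of replicates whose depth differed by over 1.3-fold, the difference in miR-499-5p count on a log scale was 65.3 to 81.1% of the difference in depth. For miR-486 it was 113 to 164%, for miR-208b-3p 117 to 157% and for miR-208a-5p 41.6 to 157%. In summed miRNA reads, Ad-Yap shRNA libraries were the shallowest on average and Ad-GFP libraries the deepest, while the implied library totals ran the other way, with the highest mean in Ad-Yap shRNA and the lowest in Ad-GFP. Depth of either kind moved with the groups, and its part in the miR-499-5p and miR-486 results was not tested.

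**Figure D5:**
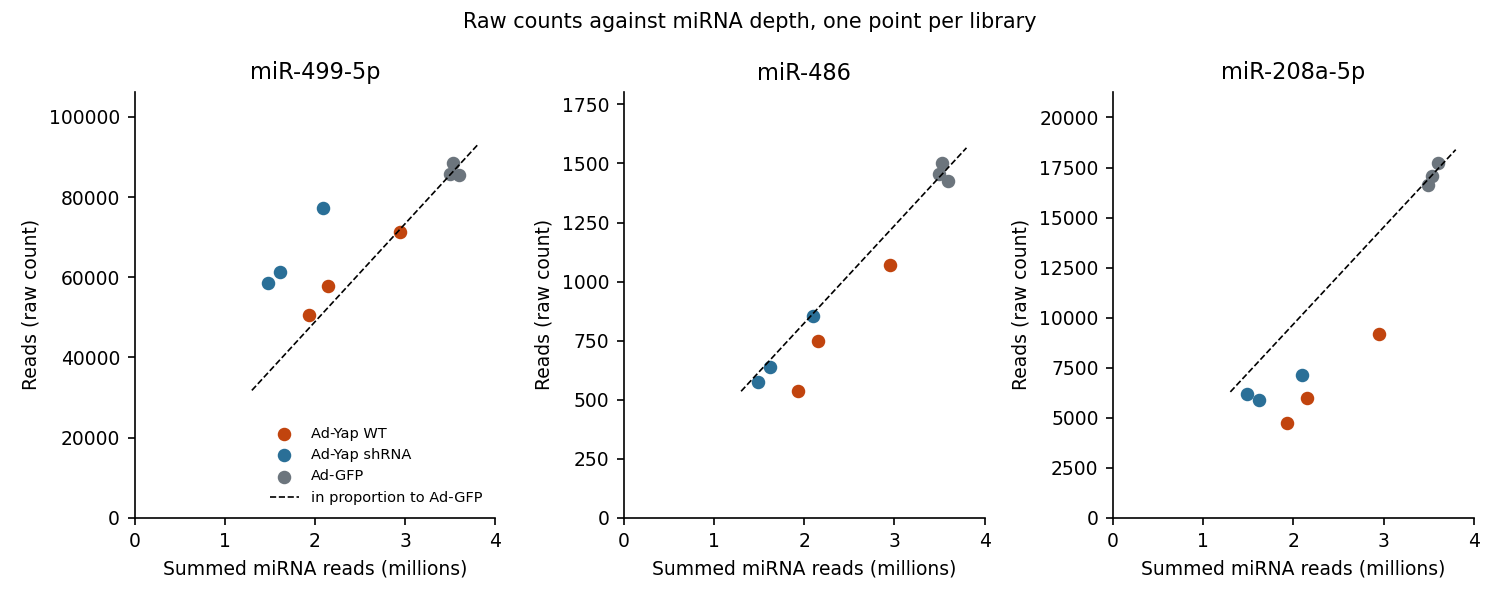
Read counts of miR-499-5p, miR-486 and miR-208a-5p against the summed miRNA reads of the library, in M, both on linear axes, with 1 point per library; the dashed line marks counts in proportion to those of the Ad-GFP libraries. The Ad-Yap shRNA libraries lie far above the line for miR-499-5p (58686 to 77364 reads), close to it for miR-486 (574 to 853 reads), and below it for miR-208a-5p (5869 to 7136 reads).

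Across the 9 libraries, miR-499-5p was most like miR-181a-5p (Pearson r = 0.9995 on log2 CPM), let-7g-5p (r = 0.984) and miR-26a-5p (r = 0.968). These r values describe 9 libraries in 3 groups that share their scaling and depth, and carry no test. The ratio of miR-499-5p to miR-181a-5p reads was 1.33 ± 0.032 in Ad-Yap WT, 1.49 ± 0.023 in Ad-Yap shRNA and 1.24 ± 0.017 in Ad-GFP libraries (SD, n = 3 each), a range of 1.23-fold over all 9, while both miRNAs moved by over that in CPM. miR-486 was most like miR-1-3p (r = 0.963), miR-30b-5p (r = 0.949) and miR-1b (r = 0.945). miR-208a-3p was most like miR-125b-1-3p (r = 0.938), miR-27a-3p (r = 0.916) and miR-490-5p (r = 0.864), and miR-208b-3p was most like miR-130a-3p (r = 0.801), miR-382-5p (r = 0.786) and miR-324-5p (r = 0.781). The read ratios of miR-208a-3p to its 3 ranged 2.97-, 2.17- and 8.58-fold over the 9 libraries, in that order. Those of miR-208b-3p ranged 1.73-, 1.82- and 1.53-fold. Among the members, miR-499-5p and miR-486 had r = 0.906 and miR-208a-3p and miR-208b-3p r = 0.067, the miR-208 pair at low counts.

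The other muscle miRNAs of the table, 7 members of the miR-1, miR-133 and miR-206 families, are made from genes of their own or from other hosts. They include both arms of miR-133a, and miRNAs close in sequence whose shared reads may be counted in either, so the 7 are not independent. In Ad-Yap shRNA against Ad-GFP 5 of 7 rose and 0 fell, with a median log2 fold change of 0.73, beside 24.0% and 17.8% of all tested miRNAs. In Ad-Yap WT against Ad-GFP 0 rose and 2 fell, with a median of -0.03, beside 15.4% and 9.67%. Ad-Yap WT was lower than Ad-Yap shRNA for 5 of 7, with a median of -0.85, beside 14.3% of all tested miRNAs. miR-1-3p, which restrains growth of heart muscle cells in mice, rose by 0.82 with a standard error of 0.12 in Ad-Yap shRNA (edgeR, adjusted p = 0.00158), and miR-1b, which is close to it in sequence, rose by 0.73 with a standard error of 0.13 (edgeR, adjusted p = 0.00268). miR-133a-3p, which shares a primary transcript with miR-1, rose by 0.56 in Ad-Yap shRNA (edgeR, adjusted p = 0.00158) and fell by 0.31 in Ad-Yap WT (edgeR, adjusted p = 0.031), each with a standard error of 0.083 to 0.084. miR-133c fell by 0.65 with a standard error of 0.13 in Ad-Yap WT (edgeR, adjusted p = 0.0123) and stood at -0.01 in Ad-Yap shRNA. With the authors' totals, miR-1-3p was at -1.39, miR-1b at -1.46 and miR-133a-3p at -1.65 in Ad-Yap shRNA over Ad-GFP, all lower. These 3 rises also lost their call with summed reads alone, at 0.22 for miR-1-3p, 0.14 for miR-1b and -0.037 for miR-133a-3p (edgeR, adjusted p = 0.161, 0.472 and 0.756), and with cyclic loess, at 0.28, 0.23 and 0.13 in the same order (limma, adjusted p = 0.0595, 0.19 and 0.167). The fall of miR-133a-3p in Ad-Yap WT was lost with a replicate block (edgeR, adjusted p = 0.0564) and in 5 of 9 fits without 1 library, those leaving out any Ad-GFP library or replicate 1 or 3 of Ad-Yap WT (edgeR, adjusted p from 0.0544 to 0.102).

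miRNAs from introns of genes that are not muscle-specific were called at rates near those of all tested miRNAs in Ad-Yap shRNA against Ad-GFP. Of 31 tested, 7 rose and 6 fell there, with a median of -0.04, beside 24.0% and 17.8% of all tested miRNAs. This list includes both arms of miR-126a, which also form the endothelial pair below. In Ad-Yap WT against Ad-GFP 3 rose and 3 fell, with a median of -0.05, beside 15.4% and 9.67%. Between Ad-Yap WT and Ad-Yap shRNA, 6 were higher and 5 lower in Ad-Yap WT, with a median of -0.10, beside 14.2% and 14.3%. The smallest p was that of miR-204-5p, encoded in Trpm3, which fell by 2.89 on the log2 scale with a standard error of 0.12 in Ad-Yap shRNA (edgeR, adjusted p = 1e-05), while miR-342-3p, encoded in Evl, rose by 0.65 with a standard error of 0.10 (edgeR, adjusted p = 0.0021). With the authors' totals miR-342-3p was at -1.55, and with summed reads alone its call ended, at 0.051 (edgeR, adjusted p = 0.801).

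The cardiomyocyte markers were present in every library, as were those of other heart cells. The fibroblast list of 4 miRNAs summed to 39670 to 53200 CPM in Ad-Yap WT, 37595 to 45702 CPM in Ad-Yap shRNA and 34790 to 38107 CPM in Ad-GFP libraries. Against Ad-GFP, 1 rose and 1 fell in Ad-Yap WT (median -0.07), and 1 rose and 2 fell in Ad-Yap shRNA (median -1.24). Most of the sum was miR-21-5p, which averaged 34486 CPM in Ad-Yap WT, 36582 in Ad-Yap shRNA and 21315 in Ad-GFP cells. The rest averaged lower in Ad-Yap shRNA than in Ad-GFP: miR-199a-5p 4125 against 11754 CPM, miR-199a-3p 730 against 2322 and miR-214-3p 692 against 1347. The endothelial pair, both arms of miR-126a, rose in both comparisons with Ad-GFP and summed to 5002 to 5852 CPM in Ad-Yap WT, 6172 to 7429 CPM in Ad-Yap shRNA and 3581 to 4480 CPM in Ad-GFP libraries. The smooth muscle pair summed to 13061 to 14790 CPM in Ad-Yap WT, 16454 to 21834 CPM in Ad-Yap shRNA and 13867 to 14692 CPM in Ad-GFP libraries, with 1 up and 1 down in Ad-Yap shRNA and 1 down in Ad-Yap WT. Of all tested miRNAs, 15.4% rose and 9.67% fell in Ad-Yap WT against Ad-GFP. In Ad-Yap shRNA 24.0% rose and 17.8% fell. None of these defining markers outside the blood list was at 0 in all libraries of a group. The part of the cell mixture in the members' changes was not tested.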

How the data were processed

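Small RNA libraries of 9 samples (Ad-Yap WT, Ad-Yap shRNA and Ad-GFP, n = 3 each) were analysed from 1 table of 1422 miRNAs (653 annotated, 769 predicted). Its read counts are whole numbers deposited by the authors without normalization. Its RPM values were computed by the authors from those counts, and dividing 1 by the other gives a total per library whose meaning is not stated. The authors' deposited group means of counts and of RPM were not used. Bowtie2, DESeq2 and the rn6 build are named in the submitters' processing notes, without roles. Use of molecular identifiers is not given in these sources.

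Tests used edgeR 4.0.16 (R 4.3.3): filterByExpr (579 miRNAs), TMM, 1 mean per group over all 9 libraries, glmQLFit and glmQLFTest, Benjamini-Hochberg over 579, threshold 0.05. The standard error is the log2 fold change over the root of F, and 95% intervals use the fit's total degrees of freedom; both include the spread between libraries. DESeq2 1.42.0, limma 3.58.1 and other scalings were alternatives. Within-library ratios were compared by an exact permutation test, 1-sided on the between-group sum of squares of log2 ratios, over 3 groups of 3 libraries. Likeness used log2(CPM + 0.5) and annotated miRNAs averaging at least 100.0 CPM. The scripts were checked on simulated counts. The members, lists and tests were chosen with earlier results of these data known. Named miRNAs are the members, their other arms, up to 3 per list by smallest p, and the 3 most like each member. The whole fibroblast list and both arms of miR-144 are named besides. Whether same-numbered replicates pair is not known. Sequences are from RefSeq (GRCr8).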

Additional observations from a re-analysis of the deposited data

How the results depend on the processing

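The authors' library totals, summed miRNA reads alone, cyclic loess, no count filter, a replicate block and voom gave -1.32, -0.26, -0.060, -0.032, -0.023 and -0.095 for miR-208a-3p in Ad-Yap WT over Ad-GFP. With the authors' totals, miR-208a-3p was -2.31 in Ad-Yap shRNA over Ad-GFP; miR-208b-3p was -1.25 for Ad-Yap WT over Ad-GFP, -1.80 for Ad-Yap shRNA over Ad-GFP, and 0.55 in Ad-Yap WT over Ad-Yap shRNA. In the same 3 comparisons miR-499-5p was -0.97, -0.98 and 0.013, and miR-486 -1.31, -1.67 and 0.36. For Ad-Yap shRNA over Ad-GFP those totals gave -2.01 for miR-208a-5p, -2.05 for miR-208b-5p, -1.34 for miR-499-3p, -1.39 for miR-1-3p, -1.65 for miR-133a-3p, -1.46 for miR-1b and -1.55 for miR-342-3p. For Ad-Yap WT over Ad-Yap shRNA they gave 0.22 for miR-208a-5p, 0.046 for miR-1-3p, 0.032 for miR-133a-3p, 0.25 for miR-133c, 0.033 for miR-342-3p and 0.78 for miR-451-5p. Summed reads alone gave -0.25 and -0.19 for miR-208b-3p in Ad-Yap WT, then Ad-Yap shRNA, over Ad-GFP. They gave -0.057 for miR-486, -0.37 for miR-208a-5p, -0.49 for miR-208b-5p and -0.037 for miR-133a-3p in Ad-Yap shRNA over Ad-GFP, and -0.27 for miR-486 in Ad-Yap WT over Ad-Yap shRNA. Without a filter, miR-208b-3p was -0.058 in Ad-Yap WT over Ad-GFP, and miR-486 0.43 (edgeR, adjusted p = 0.0813) and miR-208b-5p -0.022 in Ad-Yap shRNA over Ad-GFP. miR-499-5p in Ad-Yap WT over Ad-GFP passed with DESeq2 (0.36), without predicted miRNAs (0.42) and with a replicate block (0.39); the cause was not tested. Deviations of replicates with the same number had correlations of -0.336 to 0.332. Differently numbered ones were not set beside them, so these values cannot show whether the numbers pair, and the block pairs nothing known. Without predicted miRNAs, miR-486 was 0.0070 in Ad-Yap WT over Ad-GFP, and with voom miR-208a-3p was -0.020 in Ad-Yap WT over Ad-Yap shRNA. Calls for Ad-Yap WT over Ad-GFP numbered 145, but 322 with the authors' totals and 90 without a filter; for Ad-Yap shRNA over Ad-GFP 242, but 493 with those totals.

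Leaving out 1 library at a time gave, for Ad-Yap WT over Ad-GFP, -0.45 to 0.41 for miR-208a-3p, -0.14 to 0.21 for miR-208b-3p, 0.31 to 0.53 for miR-499-5p, -0.088 to 0.027 for miR-486, -0.0078 to 2.30 for miR-499-3p, -0.089 to 0.018 for miR-1-3p, -0.20 to 0.028 for miR-204-5p and 71 to 148 calls, the counts being 71 without replicate 3 of Ad-Yap WT, and 83, 96 and 96 without replicates 1, 2 and 3 of Ad-GFP. For Ad-Yap shRNA over Ad-GFP it gave -0.22 to 0.03 for miR-208a-3p, -0.16 to 0.23 for miR-208b-5p and -0.070 to 0.051 for miR-133c. For Ad-Yap WT over Ad-Yap shRNA it gave -0.35 to 0.48 for miR-208a-3p and -0.83 to 1.46 for miR-499-3p. The adjusted p of the ratio of miR-499-5p to miR-486 ranged from 0.0214 to 0.257, and that of miR-208a-5p to miR-486 from 0.025 to 0.163, by exact permutation. miR-499-5p and miR-486 in Ad-Yap shRNA over Ad-GFP kept their calls in all 9 of these fits. Counts of at most 149 reads limit miR-208a-3p and miR-208b-3p.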
